A study of Mus musculus with 8 samples.

Results

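EP2 is 1 of the cell-surface receptors for prostaglandin E2. It couples to the stimulatory G protein and raises cyclic AMP (cAMP), which activates protein kinase A and transcription factors of the CREB family. In the ovary, the surge of luteinizing hormone makes the cumulus cells around the oocyte express prostaglandin synthase 2, and the prostaglandin E2 that they make acts back on them through EP2 while they spread around the oocyte in a hyaluronan matrix and lose the expression pattern of growing follicles. The comparison described here sets cumulus cells without EP2 against wild-type cumulus cells 9 h after the ovulatory stimulus, late in this process and before ovulation. It holds 2 of the 8 arrays of the series, and all 12422 probe sets that are not Affymetrix controls were read, out of 12488 in the table.

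The tested array came from cumulus cells of Ptger2-/- (EP2KO) female mice, a label for no working copy of the gene of EP2. Its counterpart came from WT female mice. Both were labelled C57Bl/6 and 3 to 4 weeks old. All mice were primed with 5 IU of PMSG, a gonadotropin that makes follicles grow, and the ovulatory stimulus was 5 IU of hCG, a stand-in for luteinizing hormone, 48 h afterwards, except that the 0 h samples are labelled as having had no hCG. The other 6 arrays hold the same 2 genotypes at 0, 3 and 14 h after hCG, with 1 array per genotype and time and no replicates; at 0, 3 and 9 h the cells were stripped by hand from complexes of punctured follicles, and at 14 h they came from ovulated complexes treated with hyaluronidase. The labels do not say how many mice gave the cells of an array. With 1 array per genotype at 9 h the difference itself has no test, so each value is the log2 signal of the EP2KO array minus that of the WT array, set beside the same difference at 0, 3 and 14 h. These are bulk samples, in which fewer cells of a type and less RNA per cell cannot be told apart.

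Array medians at 9 h were 7.84 in EP2KO and 7.84 in WT on the log2 scale, and the 2 arrays correlated with r = 0.995 across probe sets. Most cumulus markers were high in both: of 12 measured cumulus and granulosa markers 10 lay above the array median in EP2KO and 10 in WT. In each array 6 of 10 erythroid, 8 of 16 endothelial, 7 of 18 oviduct and surface epithelium and 5 of 24 theca and stroma markers did. The gap junction gene Gja1 read 13.47 in EP2KO and 13.57 in WT, and the inhibin alpha subunit Inha 13.68 in EP2KO and 13.61 in WT. Ptger2 itself read 4.69 in EP2KO and 5.37 in WT at 9 h. At the other times it read 4.57 in EP2KO and 4.95 in WT (0 h), 4.24 and 5.97 (3 h), and 4.51 and 5.33 (14 h), in the same order. The EP2KO array was the lower at all 4 times, and all 8 values lie far below the array medians. The sources used here do not say whether the probe set lies inside the deleted part of the gene. The RNA quality of the 9 h arrays differed: the signal of the 3' control probe set minus that of the 5' one, which grows as the labelled product gets shorter, was 1.22 in EP2KO and 1.71 in WT for Gapdh, and 1.12 in EP2KO and 1.54 in WT for Actb. For Gapdh it was 1.48 and 1.86 at 0 h, 0.96 and 0.80 at 3 h, and 2.82 and 2.87 at 14 h, EP2KO first in each pair.

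Most of the transcriptome differed little between EP2KO and WT at 9 h. The standard deviation of EP2KO minus WT over the probe sets was 0.200 at 9 h, the lowest of the 4 times, against 0.224 at 0 h, 0.241 at 3 h and 0.226 at 14 h. At 9 h 5 probe sets were at least 2-fold higher in EP2KO (0.0403% of 12422) and 11 at least 2-fold lower (0.0886%). The same counts were 3 (0.0242%) and 2 (0.0161%) at 0 h, 8 (0.0644%) and 50 (0.403%) at 3 h, and 21 (0.169%) and 6 (0.0483%) at 14 h. At a lower threshold of 1.5-fold, 96 probe sets were higher (0.773%) and 62 lower (0.499%) at 9 h, against 0.716% higher and 0.306% lower at 0 h, 0.451% and 1.89% at 3 h, and 0.668% and 1.32% at 14 h. A 9 h difference above those of the 3 other times was found in 17.2% of all probe sets. One below them was found in 17.8%, so such a position is common. Of the 16 past 2-fold, 5 of the 5 higher and 8 of the 11 lower had it. Choosing by the size of the 9 h difference favours this position.

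**Figure D1:**
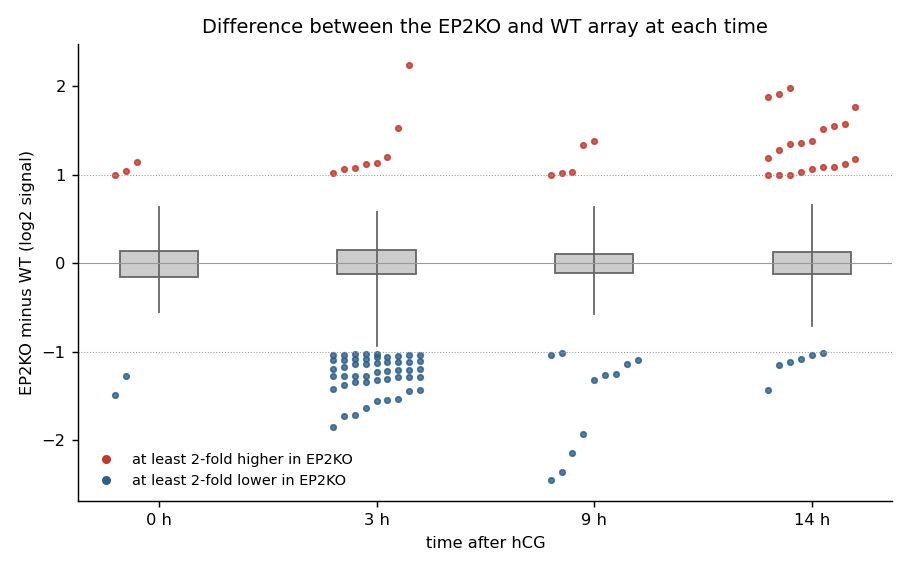
EP2KO minus WT in log2 signal (vertical axis) by time after hCG in hours (horizontal axis), over 12422 probe sets. Boxes span the quartiles and lines run between the outer 0.5% on either side; points are single probe sets at least 2-fold apart, 5 above and 11 below at 9 h, where the lowest 4 points lie at −1.93 and lower.

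Where the difference was tested against the other times, nothing passed. A limma fit of all 8 arrays, with time, genotype and a separate genotype effect at 9 h, asked whether EP2KO minus WT at 9 h departed from its mean over 0, 3 and 14 h, taking the spread over those times as error. It called 0 of 12422 probe sets (0%) at an adjusted p under 0.05; the smallest adjusted p was 0.0991. At an unadjusted p under 0.05 it listed 81 probe sets with a higher and 50 with a lower difference at 9 h, which is fewer than 5% of those tested. Without the 3 h pair of arrays 4 probe sets were called by limma, all lower: Hba-a1 (adjusted p = 0.00806), Hbb-b2 (adjusted p = 0.0193) and 2 that carry several gene symbols. Without the 40% of probe sets with the lowest mean 1 of 7453 was called by limma, with adjusted p = 0.0287; it is 1 of those 2 with several symbols. No other gene named here passed the test in any of these fits.

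The largest differences at 9 h belonged to haemoglobin, the oxygen carrier of red blood cells, and not to genes known for cumulus function. Hba-a1, an alpha chain, read 10.94 in EP2KO and 13.39 in WT, a difference of −2.45 (5.46-fold lower in EP2KO). Hbb-b2, a beta chain, read 7.98 in EP2KO and 10.34 in WT, a difference of −2.36. The WT 9 h array held the highest value of either gene among the 8 arrays, while EP2KO Hba-a1 lay between 10.21 and 11.14 at all 4 times. Hba-a1 in WT read 9.79 at 0 h, 12.21 at 3 h and 10.91 at 14 h. The 2 other probe sets with a difference of −1.93 or lower match several genes each and are left unnamed. The summed signal of the 10 measured erythroid markers was 12.09 in EP2KO and 13.80 in WT at 9 h on the log2 scale, against a range over the other arrays of 11.65 to 12.78. Apart from Hba-a1 and Hbb-b2 the markers differed little. Alas2, which makes haem in red cell precursors, read 7.94 in EP2KO and 8.28 in WT. The other 7, among them a further haemoglobin chain, Hbb-bh1 (−0.02), differed by at most 0.13. Summed leukocyte markers (33 measured) stood at 12.79 in EP2KO and 12.86 in WT, and summed endothelial markers (16 measured) at 12.04 in EP2KO and 12.08 in WT. The part of blood in the other differences was not tested.

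Apart from haemoglobin, the genes with the lowest values in EP2KO relative to WT included targets and feedback regulators of cAMP and epidermal growth factor (EGF) signalling. Nr4a1, an orphan nuclear receptor and immediate early gene, read 8.81 in EP2KO and 10.06 in WT at 9 h, a difference of −1.25 (2.38-fold lower in EP2KO). At 0 h it had read 8.46 in EP2KO and 8.70 in WT, at 3 h 10.55 and 10.74, and at 14 h it read 9.99 and 10.50, in the same order. Both genotypes thus stood about 2 units above 0 h at 3 h, and at 9 h the EP2KO array was the lower of the 2 by more than at any other time. Ereg, epiregulin, an EGF-like ligand that carries the ovulatory signal to cumulus cells, read 6.93 in EP2KO and 8.19 in WT at 9 h (−1.26), after 8.22 and 9.16 at 3 h (−0.94). A second Ereg probe set differed by only −0.15 at 9 h, but it read 3.77 in EP2KO and 3.92 in WT, far below the array medians. Errfi1, a feedback inhibitor of the EGF receptor, read 10.70 in EP2KO and 11.50 in WT (−0.80); its other probe set differed by −0.35. Klf4, a Krüppel-like transcription factor, read 8.14 in EP2KO and 9.18 in WT (−1.04), close to its difference of −1.10 at 3 h, with 0.85 at 14 h; a second probe set differed by 0.11.

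Ptgs2, the inducible prostaglandin synthase, read 9.92 in EP2KO and 10.84 in WT at 9 h, a difference of −0.92. The earlier values were 5.03 in EP2KO and 4.83 in WT at 0 h and 11.57 and 12.27 at 3 h, and the 14 h values were 10.09 and 10.04. Ptgs2 was thus far above its 0 h signal in EP2KO at 9 h, but lower than in WT at both 3 and 9 h. Crem, a cAMP-regulated member of the CREB family, read 7.87 in EP2KO and 8.57 in WT at 9 h (−0.70), after 10.31 and 11.73 at 3 h (−1.42). Junb, a subunit of AP-1, read 9.45 in EP2KO and 10.12 in WT (−0.67), with a difference of −0.71 at 3 h and 0.58 at 14 h. For Crem, Junb and Klf4 the 9 h difference was thus no larger than that at 3 h.

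The promoters of Nr4a1, Errfi1 and Ptgs2 are shown because cAMP acts through CREB-family proteins, which bind the palindrome TGACGTCA and its shorter core TGACG. The letters were searched on both strands of the window of 250 bases before to 50 bases after the start of each gene (RefSeq, GRCm38.p6), and capitals mark TGACG or its reverse complement; the palindrome holds 2 overlapping cores. The Nr4a1 stretch is chr15:101266596-101266845, that of Errfi1 chr4:150854820-150855069 and that of Ptgs2 chr1:150100032-150100061, all on the plus strand. The first 2 end at the base before the annotated start and the third begins 1 base after the first transcribed base.
Nr4a1: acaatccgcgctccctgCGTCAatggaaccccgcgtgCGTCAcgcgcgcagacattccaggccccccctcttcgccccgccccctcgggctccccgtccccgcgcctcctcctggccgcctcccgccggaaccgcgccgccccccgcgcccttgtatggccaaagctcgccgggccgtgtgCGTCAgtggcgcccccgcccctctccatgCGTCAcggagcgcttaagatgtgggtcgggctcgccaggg
Errfi1: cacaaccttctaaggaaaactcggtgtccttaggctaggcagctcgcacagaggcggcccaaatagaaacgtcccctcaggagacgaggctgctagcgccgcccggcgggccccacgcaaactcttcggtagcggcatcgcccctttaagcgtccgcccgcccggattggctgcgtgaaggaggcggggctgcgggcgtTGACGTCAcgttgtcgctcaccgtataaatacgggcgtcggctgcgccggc
Ptgs2: gagtcaccactaCGTCAcgtggagtccgct

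Nr4a1 held 4 TGACG cores before its start, a number reached by 0.502% of the 6576 genes of the array that have a window. Errfi1 held the full palindrome, which 3.16% of these genes carry. For the 31 genes named by size of the difference, 6 of the 12 lower in EP2KO with a window held TGACG, as did 5 of the 14 higher in EP2KO with a window, against 33.1% of the array's genes. With so few genes these shares are near the background, and a match of letters is a description of the window.

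The genes farthest above WT in EP2KO at 9 h included 4 from the list of granulosa differentiation, Car14, Hsd17b1, Inhbb and Esr2, among 17 named. That list holds 26 of the 8251 measured genes. Its members were chosen with earlier results of these data known, so the count is only a description. Car14, a membrane carbonic anhydrase, read 10.96 in EP2KO and 9.58 in WT, a difference of 1.38 (2.60-fold higher in EP2KO). It had read 11.94 in EP2KO and 11.56 in WT at 0 h and 12.42 and 12.25 at 3 h, and read 8.41 and 8.52 at 14 h. The 9 h difference was 1.0 above that of any other time, the widest gap in this direction on the array; gaps of haemoglobin probe sets and Wnk1 in the other direction were wider. Hsd17b1, which converts estrone to estradiol, read 11.85 in EP2KO and 10.85 in WT at 9 h (1.0), between 12.78 and 12.55 at 3 h and 8.54 and 8.83 at 14 h. Inhbb, the beta B subunit of inhibin and activin, read 11.17 in EP2KO and 10.19 in WT (0.98); at 3 h the difference was 0.63 and at 14 h −0.07. In each of these 3 genes the EP2KO and WT arrays were within 0.3 of each other at 14 h, when the signal was lowest.

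Other genes higher in EP2KO had various roles. Inhba, the beta A subunit, read 11.90 in EP2KO and 11.14 in WT (0.76), and Esr2, estrogen receptor beta, 9.46 in EP2KO and 8.67 in WT (0.79). At 3 h Esr2 had differed by 0.48. Mycl, a Myc family transcription factor, read 10.68 in EP2KO and 9.66 in WT (1.02), after a difference of 0.78 at 3 h. Id3, an inhibitor of basic helix-loop-helix factors that answers to BMP signals, read 11.59 in EP2KO and 10.76 in WT (0.83). The Id3 difference was 0.55 at 0 h and 0.37 at 3 h. Hpgd, which inactivates prostaglandins, read 8.22 in EP2KO and 7.37 in WT (0.85), close to its difference of 0.73 at 3 h. Tnni3, a troponin, read 11.05 in EP2KO and 10.02 in WT (1.03), but 0.85 also separated the genotypes at 14 h. Dsp, desmoplakin, which anchors desmosomes, read 9.83 in EP2KO and 8.93 in WT (0.90), with differences of 0.09, 0.15 and 0.25 at 0, 3 and 14 h. A second Dsp probe set differed by −0.23, but it read only 3.84 in EP2KO and 4.07 in WT. Prss23, a serine protease with 7.58 in EP2KO and 6.25 in WT (1.33), also differed by 1.04 at 0 h; both its 9 h values lie below the array medians, and it and Phlda1 (−1.02) were added after their values were seen.

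**Figure D2:**
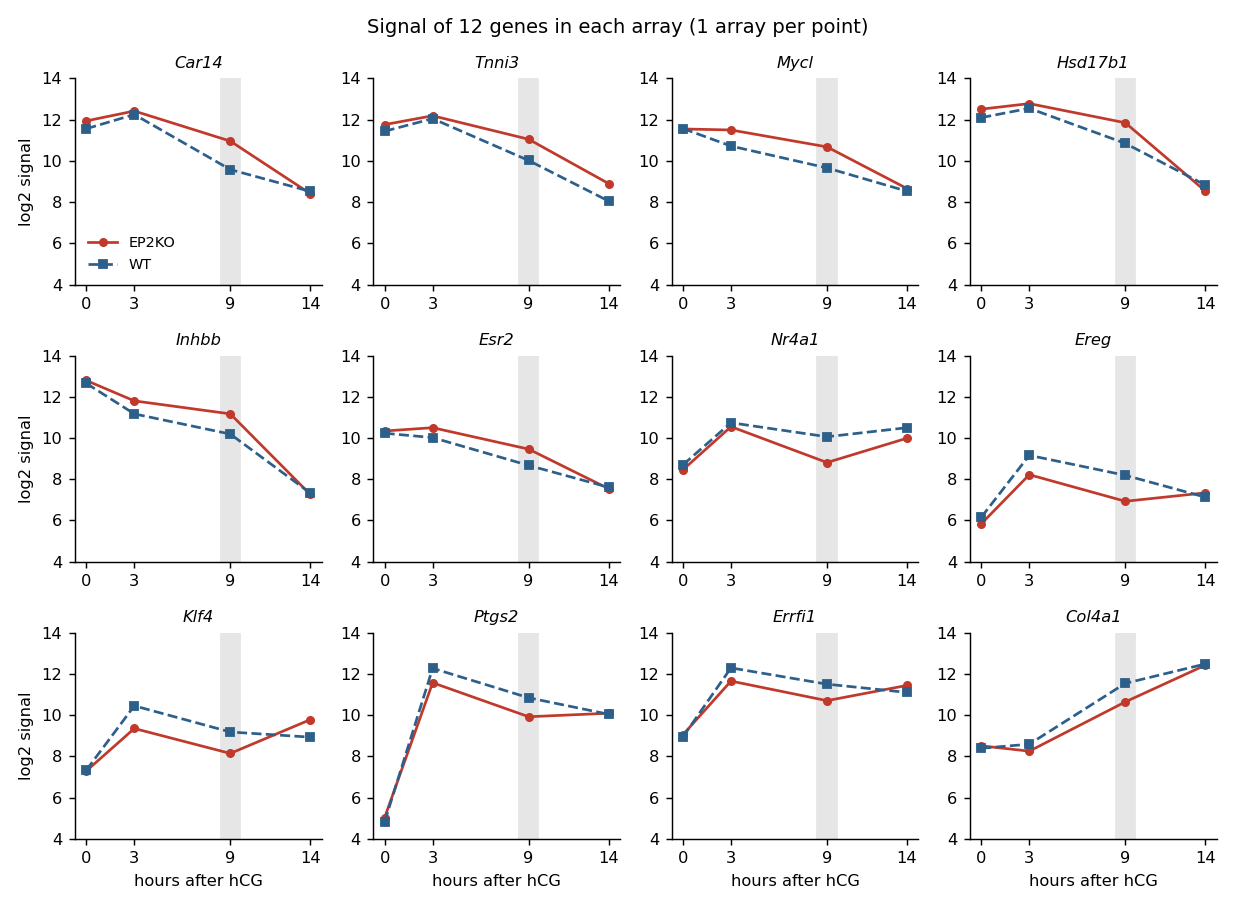
Log2 signal (vertical axis) by time after hCG in hours (horizontal axis) of 12 genes, with EP2KO as red circles and WT as blue squares, 1 array per point; the grey band marks 9 h. Car14, Hsd17b1 and Inhbb are higher in EP2KO at 9 h and close to WT at 14 h, while Nr4a1, Ereg and Ptgs2 are lower in EP2KO at 9 h.

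In all 31 genes were named by size, 17 higher and 14 lower in EP2KO. Of the 17 higher, 13 were at least 2-fold lower at 14 h than at 3 h on the mean of both genotypes, and none was 2-fold higher; of the 14 lower, 2 were at least 2-fold lower and 4 at least 2-fold higher. Over all probe sets 7.85% were at least 2-fold lower and 3.54% at least 2-fold higher by the same measure. The named genes were limited to higher signals, where decline is more common. A 2-fold decline in both genotypes was found in 406 of 2482 probe sets in the highest of 5 equal bins by mean signal. In the lowest bin it was found in 14 of 2485. All 17 higher genes lay outside the range of their differences at 0, 3 and 14 h, as did 12 of the 14 lower. The rule for naming favours this position. For the higher genes the difference was above 0 in 13 of 17 at 0 h, 11 at 3 h and 6 at 14 h; for the lower genes it was above 0 in 9 of 14 at 0 h, 1 at 3 h and 9 at 14 h. Among the lower genes Xist, the RNA of X inactivation, read 7.41 in EP2KO and 8.50 in WT (−1.09) with differences of −0.18 to 0.16 at the other times. Wnk1, a kinase of ion transport, read 7.39 in EP2KO and 8.71 in WT (−1.32), with −0.93 and 0.15 for its other probe sets. Col4a1, a basement membrane collagen, read 10.64 in EP2KO and 11.54 in WT (−0.90), between 8.25 and 8.59 at 3 h and 12.42 and 12.48 at 14 h. Iqgap1, a scaffold of the actin cytoskeleton, differed by −0.69, with −0.59 and 0.13 for its other probe sets. The last of these was below the array medians, at 6.13 in EP2KO and 6.00 in WT. Fyn, a Src family kinase, differed by −0.60 and Efnb2, an ephrin ligand, by −0.87, against −1.28 at 3 h. Dnajc3, a co-chaperone of the endoplasmic reticulum, stood at −0.89, but its 3 other probe sets ranged from −0.43 to 0.18.

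Among the remaining higher genes, Pfkp, a phosphofructokinase of glycolysis, differed by 0.81 and 0.66 on its 2 probe sets. Hsd17b10, a mitochondrial dehydrogenase, stood at 0.80, Rbmxl1, an RNA-binding protein, at 0.84 and Eif4a2, a helicase of translation initiation, at 0.76. Actr6, an actin-related protein of chromatin remodelling, stood at 0.71, Snhg6, a small nucleolar RNA host gene, at 0.68, Rpusd4, a pseudouridine synthase, at 0.62 and Ptprd, a receptor phosphatase, at 0.47. The other probe sets of Ptprd (−0.08 and 0.13) and of Snhg6 (−0.17) did not share these differences. That of Snhg6 was far below the array medians, at 5.30 in EP2KO and 5.47 in WT.

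**Figure D3:**
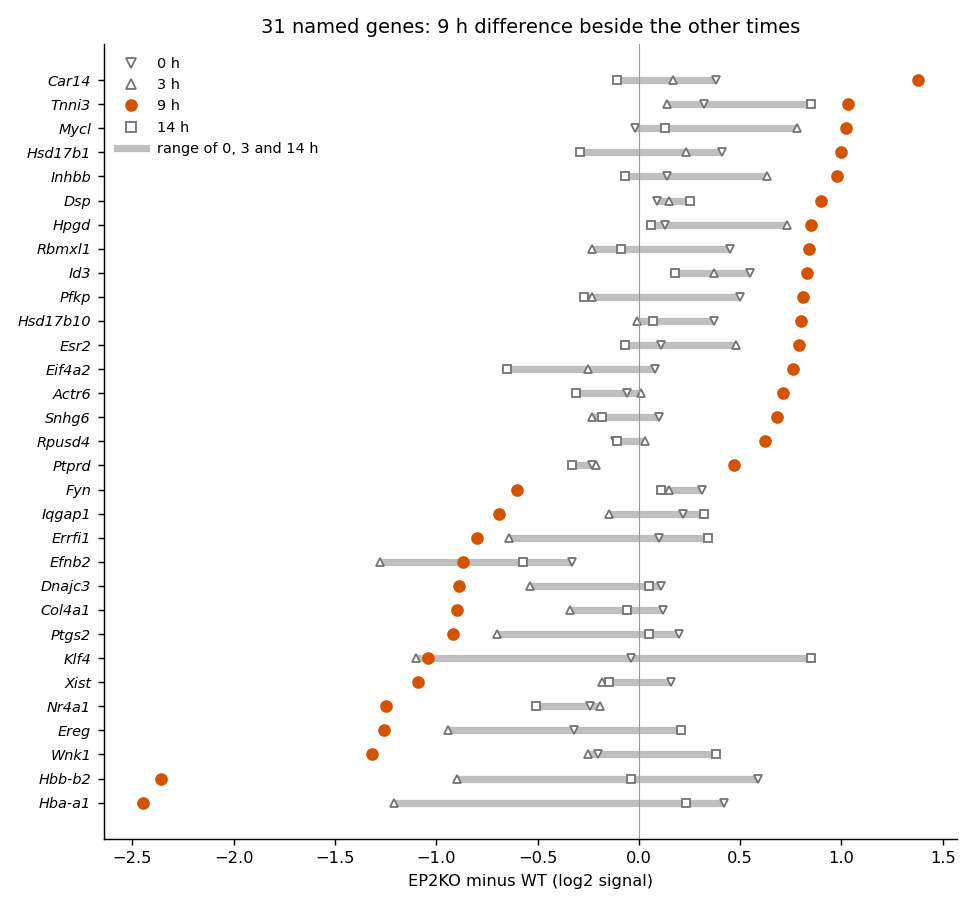
EP2KO minus WT in log2 signal (horizontal axis) of the 31 named genes (rows), at 9 h (orange circles) and at 0 h, 3 h and 14 h (open triangles and squares), with the range of the 3 other times as a grey bar. The orange circle lies outside the bar in all but Klf4 and Efnb2.

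The design also asks whether EP2KO cumulus cells stood at an earlier point of the response to hCG at 9 h, so probe sets were grouped by their change between 3 and 14 h, which uses neither 9 h array. Of 786 probe sets whose signal was at least 2-fold lower at 14 h than at 3 h in both genotypes, 747 were higher in EP2KO at 9 h (95.0%) and 35 lower, with a median difference of 0.32. Of 314 probe sets at least 2-fold higher at 14 h than at 3 h in both genotypes, 65 were higher in EP2KO at 9 h and 247 lower (78.7%), with a median of −0.15. Over all 12422 probe sets 45.2% were higher and 52.3% lower, with a median of −0.01. The median signal of the late-declining set at 9 h was 9.60 in EP2KO and 9.30 in WT, between 10.215 and 10.305 at 3 h and 8.535 and 8.505 at 14 h. That of the late-gaining set was 8.56 in EP2KO and 8.70 in WT, between 7.98 and 8.02 at 3 h and 9.835 and 9.84 at 14 h. In both sets the EP2KO array thus lay on the 3 h side of the WT array. Probe sets that had gained at least 2-fold from 0 to 3 h and then belonged to neither set (131) had a median of 0.04, with 69 higher and 61 lower in EP2KO.

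**Figure D4:**
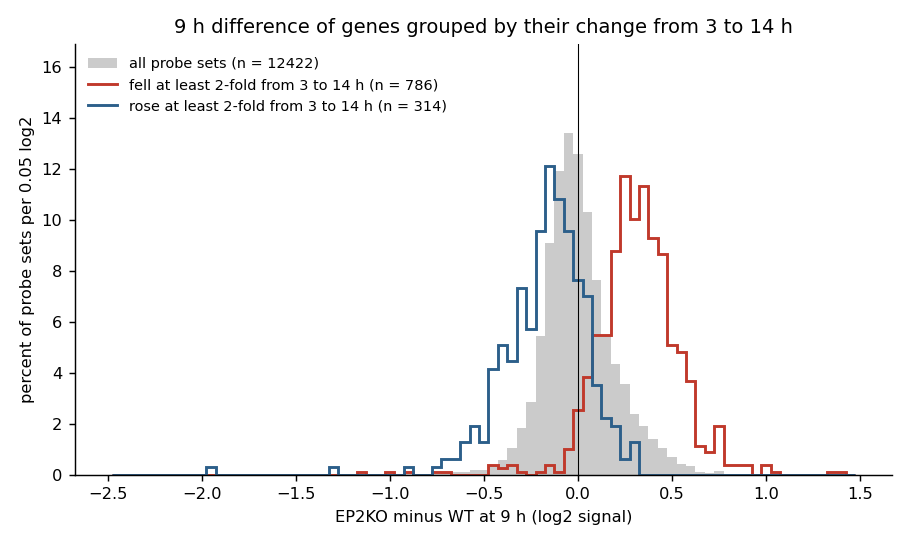
Share of probe sets, in percent per step of 0.05 (vertical axis), by EP2KO minus WT in log2 signal at 9 h (horizontal axis), for all 12422 probe sets (grey), the 786 at least 2-fold lower at 14 h than at 3 h (red) and the 314 at least 2-fold higher (blue). The red outline centres on 0.32 and the blue outline on −0.15.

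Whole-array correlations had the same order. Probe sets are not replicates, so these values are a description. The EP2KO 9 h array correlated with the WT 3 h array at r = 0.977 and the WT 9 h array with it at r = 0.967. With the EP2KO 3 h array the values were 0.985 for EP2KO at 9 h and 0.973 for WT at 9 h. With the WT 14 h array they were 0.961 for EP2KO at 9 h and 0.970 for WT at 9 h, and with the EP2KO 14 h array 0.963 and 0.971. Rank correlations gave the same order in all 4 comparisons, for example 0.976 for EP2KO and 0.965 for WT at 9 h with WT at 3 h. At 0 h, before hCG, the EP2KO array was also the closer of the 2 genotypes to the 3 h arrays. With WT at 3 h r was 0.959 for EP2KO and 0.945 for WT at 0 h. With EP2KO at 3 h the values at 0 h were 0.973 for EP2KO and 0.962 for WT. Closeness to the 3 h arrays was thus not particular to 9 h.

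Other measures moved with this pattern. The late-declining set was also higher in EP2KO at 0 h, before hCG, with a median difference of 0.23 and 706 of 786 probe sets above 0; in 505 of 786 the 9 h difference exceeded the 0 h one, by 0.10 at the median over the set. The late-gaining set had a median of 0.02 at 0 h, and in 224 of 314 the 9 h difference was below the 0 h one. In the 141 late-declining probe sets whose 0 h difference lay within 0.1 of 0, a restriction chosen after the data were seen, 131 were higher in EP2KO at 9 h, with a median of 0.28. The 3' minus 5' differences of Gapdh and Actb were lower in EP2KO than in WT at 0, 9 and 14 h, while at 3 h those of both genes were higher in EP2KO; the 14 h arrays that define the sets had the highest Gapdh values of the series; the part of RNA quality in the pattern was not tested. Signal level moved with it too: the median 9 h difference of all probe sets was −0.04 in the lowest of 5 equal bins by mean signal and 0.06 in the highest. Within these bins the late-declining set had medians of 0.265 to 0.33 (14 to 406 probe sets) and the late-gaining set −0.08 to −0.21 (22 to 102). The parts of signal level and of the 0 h difference in the pattern were not tested.

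Gene lists by function were used to describe where these differences lay. The lists were chosen with earlier results of these data known, so their counts and medians are not independent of the data. For a gene with several probe sets the one with the highest mean signal was taken, and over all 8251 genes the median 9 h difference was 0, with 47.9% above and 49.7% below 0. Beside the share of all genes 1.5-fold apart at 9 h, 0.933% higher and 0.436% lower, few list members were that far apart. Of the 26 measured genes of granulosa differentiation 14 were higher and 12 lower in EP2KO, 5 of them at least 1.5-fold higher and none 1.5-fold lower. The lower members include Igf1r, the IGF1 receptor, at −0.43, Bmpr1a, a BMP receptor, at −0.39 and Nr5a1, steroidogenic factor 1, at −0.25. The list split by its own time course: all 10 members that declined from 3 to 14 h were higher in EP2KO, with a median of 0.645 (95.0% and 0.32 over all late-declining probe sets), while of the 16 others 4 were higher and 12 lower, with a median of −0.075. The declining members include Ccnd2, cyclin D2, at 0.44 (0.08 at 0 h) and Kitl, kit ligand, at 0.53. Kitl had differed by 0.54 already at 0 h, before hCG. Fshr, the FSH receptor, read 9.24 in EP2KO and 9.27 in WT, a signal it had nearly reached by 3 h (9.71 and 9.69). For Fshr the genotypes were thus alike in signal at 3, 9 and 14 h to within 0.03.

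Most cell cycle genes were higher in EP2KO by a small amount. Of 37 measured, 33 were higher and 4 lower, with a median of 0.23, against medians of 0.16 at 0 h, 0.10 at 3 h and −0.11 at 14 h. Averaging all probe sets of a gene gave a 9 h median of 0.147. Mcm7, a subunit of the replicative helicase, read 9.30 in EP2KO and 8.69 in WT (0.61), and Cdc6, which loads that helicase, 8.26 in EP2KO and 7.65 in WT (0.61). Cdc20, an activator of the anaphase-promoting complex, differed by 0.54 and Ccnb2, cyclin B2, by 0.35. Cdkn1b, the cell cycle inhibitor p27, was among the 4 lower, at 6.85 in EP2KO and 7.36 in WT (−0.51). The 21 members that declined from 3 to 14 h were all higher in EP2KO, with a median of 0.35, close to the 95.0% and 0.32 of all late-declining probe sets.

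Glycolysis and hypoxia genes had the highest list median at 9 h, 0.255 over 20 genes, with 14 higher and 6 lower. At 0 h this median was higher still, at 0.34, and it was −0.19 at 14 h. Pgk1, phosphoglycerate kinase, read 11.80 in EP2KO and 11.13 in WT (0.67), Pfkl, the liver-type phosphofructokinase, 10.68 in EP2KO and 10.01 in WT (0.67), and Ldha, lactate dehydrogenase A, 13.05 in EP2KO and 12.56 in WT (0.49). Hk2, a hexokinase, differed by −0.27. Heat shock, chaperone and unfolded protein response genes had a median of 0.17, with 21 of 25 higher. At 0, 3 and 14 h this median was 0.09, −0.08 and −0.09. Hspa1b, an inducible heat shock protein, led at 0.60 and Xbp1, a transcription factor of the unfolded protein response, stood at 0.40. Before hCG, at 0 h, Hspa1b had already differed by 0.55 and Xbp1 by 0.47. Cytoplasmic ribosomal protein genes had a median of 0.175, with 12 of 16 higher, against 0.115, 0.015 and 0.10 at 0, 3 and 14 h. Quantile normalization lowered the chaperone median to 0.0825 and the ribosomal one to 0.063.

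Matrix and adhesion genes lay on the other side. Of 29 measured basement membrane, collagen and matrix genes 7 were higher and 21 lower in EP2KO, with a median of −0.14, and of 20 integrin and adhesion genes 4 were higher and 15 lower, also with a median of −0.14. Apart from Col4a1 the differences were small: Col18a1, the precursor of endostatin, stood at −0.41, Sparc, a collagen-binding protein, at −0.28 and Col4a2 at −0.23. Itgb1, integrin beta 1, read 12.34 in EP2KO and 12.70 in WT (−0.36) and differed by −0.53 at 14 h. Proteases and inhibitors of ovulation had 5 higher and 17 lower of 23, with a median of −0.12; Timp3, an inhibitor of metalloproteinases, stood at −0.48 and Mmp14, a membrane-bound metalloproteinase, at −0.42. The hyaluronan matrix genes of cumulus expansion were also lower more often than higher in EP2KO, by small amounts. Has2, the hyaluronan synthase, read 8.64 in EP2KO and 8.64 in WT, although at 3 h it had read 11.03 and 11.73. Ptx3, a pentraxin of the matrix, read 11.81 in EP2KO and 11.68 in WT. Tnfaip6, which transfers heavy chains onto hyaluronan, read 8.37 in EP2KO and 8.89 in WT (−0.52). Vcan, versican, read 11.75 in EP2KO and 12.15 in WT (−0.40). At 0, 3 and 14 h Tnfaip6 differed by −0.43, −0.25 and −0.63, and Vcan by −0.03, −0.34 and −0.49. Of the 23 measured genes of this list 7 were higher and 15 lower, with a median of −0.08, and none was 1.5-fold apart. At 0, 3 and 14 h the list median was −0.16, −0.14 and 0.01.

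Signalling and transcription lists leaned low in EP2KO by a small amount, and not only at 9 h. At 0, 3 and 14 h the medians of the cAMP list were −0.01, −0.105 and −0.145. Those of the transcription factors were −0.055, −0.245 and 0, and those of the EGF list −0.10, −0.09 and 0.11. Leukocyte and endothelial markers had 9 h medians of −0.09 too. Some genes, such as Nr4a1 and Junb, belong to both the cAMP and the transcription factor list. Of 24 genes of cAMP and protein kinase A signalling 5 were higher and 19 lower (median −0.09), with 3 at least 1.5-fold lower, namely Nr4a1, Crem and Junb. Prkacb, a catalytic subunit of protein kinase A, read 9.59 in EP2KO and 10.12 in WT (−0.53), below its differences at the other times. Of 28 ovulatory transcription factors 6 were higher and 22 lower (median −0.095), among them Egr1, an immediate early zinc finger factor, at 10.46 in EP2KO and 11.03 in WT (−0.57). Cebpb, a factor required for cumulus and granulosa responses to luteinizing hormone, read 12.23 in EP2KO and 12.24 in WT after a 3 h difference of −0.53. Pparg, a lipid-sensing nuclear receptor that declined after 3 h, was the member farthest above 0, at 8.73 in EP2KO and 7.98 in WT (0.75). Before hCG, at 0 h, Pparg had already differed by 0.53. Of 13 EGF-like ligands and regulators 4 were higher and 9 lower (median −0.10); outside Ereg and Errfi1 no member differed by more than 0.29, and Btc, betacellulin, and Dusp6, a MAP kinase phosphatase, which had been lower in EP2KO by 0.61 and 0.55 at 3 h, stood at 0.13 and −0.10.

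Prostaglandin genes were mixed. Of 16 measured, Ptgs2, Ptger2 and Hpgd included, 10 were higher and 5 lower in EP2KO, with a median of 0.065. Ptges, prostaglandin E synthase, read 9.65 in EP2KO and 9.08 in WT (0.57), although at 3 h it had been lower by 0.61. Pla2g4a, the phospholipase that frees arachidonic acid, read 9.89 in EP2KO and 9.62 in WT (0.27). Ptger4, the gene of EP4, the other receptor for prostaglandin E2 that raises cAMP, read 6.78 in EP2KO and 6.59 in WT, against 7.39 and 8.82 at 3 h. In steroid synthesis 5 of 13 genes were higher and 8 lower (median −0.06): Cyp11a1, which makes pregnenolone from cholesterol, read 9.63 in EP2KO and 10.30 in WT (−0.67) and Star, which brings cholesterol into mitochondria, 9.73 in EP2KO and 10.18 in WT (−0.45), opposite to Hsd17b1. Cyp11a1 had the higher signal in EP2KO at 0 h (0.74) and at 14 h (0.32).

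Lists without a shift at 9 h were chemokines and their receptors (17 of 35 higher and 17 lower, median 0), cholesterol synthesis (10 of 17 higher, median 0.02, −0.026 under quantile normalization) and apoptosis regulators (13 of 23 higher, median 0.01). Among chemokines that differed at 14 h, Ccl2 and Ccl7 were nearly level at 9 h: Ccl2 read 4.99 in EP2KO and 4.81 in WT at 9 h, against 7.44 and 5.46 at 14 h, and Ccl7 4.84 in EP2KO and 4.85 in WT, against 5.80 and 4.80 at 14 h. Cxcl1, a neutrophil attractant, read 8.78 in EP2KO and 8.26 in WT at 9 h (0.52) and differed by 1.17 at 14 h. Of 25 innate immune and cytokine genes 5 were higher and 20 lower (median −0.09), with Socs3, a brake on cytokine signals, at −0.48 and Osmr, the oncostatin M receptor subunit, at −0.57. Interferon and MHC class I genes had 9 of 22 higher and 13 lower (median −0.11); Irf9, a factor of the interferon response, stood at −0.63 while Psmb8, an immunoproteasome subunit, stood at 0.49. Antioxidant genes had 8 of 22 higher and 13 lower (median −0.09); of its 5 members that declined from 3 to 14 h, 4 were lower in EP2KO, unlike most of the late-declining set.

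**Figure D5:**
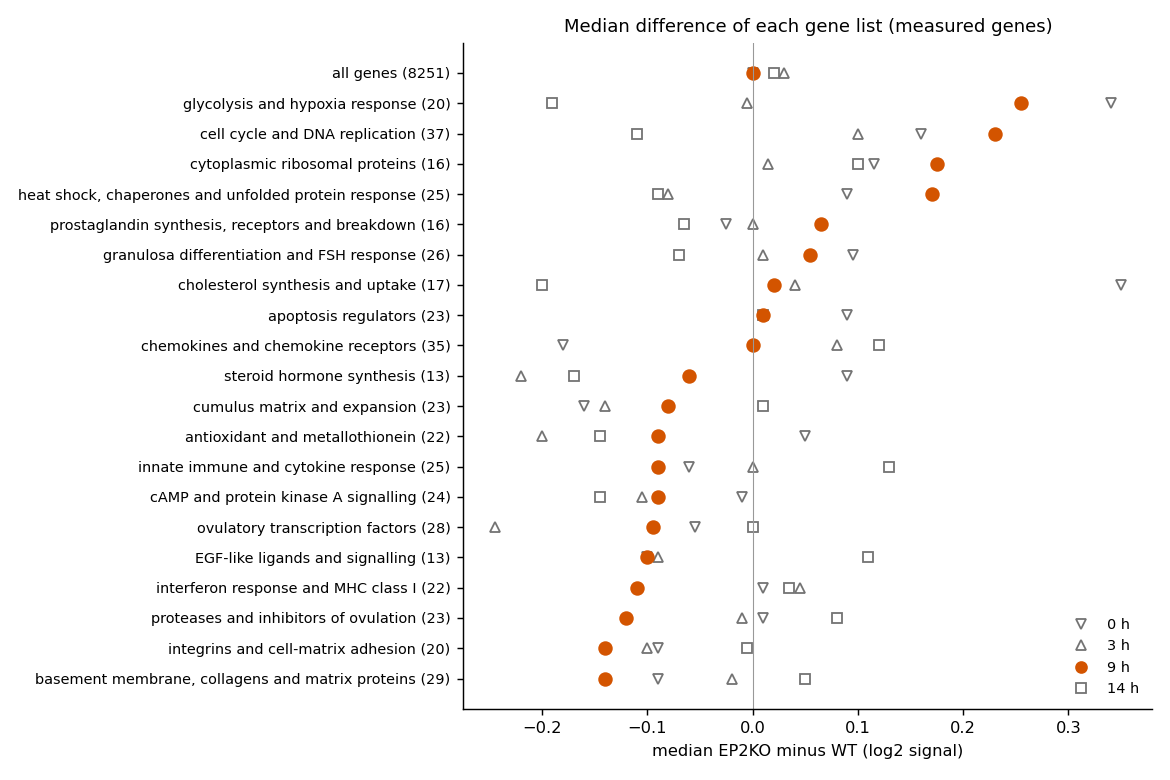
Median EP2KO minus WT in log2 signal (horizontal axis) over the measured members (number in brackets) of 20 gene lists and of all genes (rows), at 9 h (orange circles) and at 0 h, 3 h and 14 h (open symbols). At 9 h the medians run from −0.14 for matrix and integrin genes to 0.255 for glycolysis, and that of all genes is 0.

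Markers of other cell types had list medians near 0, with single exceptions. At 9 h the median difference was −0.07 over 21 oocyte markers, −0.015 over 24 theca and stroma markers, −0.09 over 33 leukocyte markers and −0.015 over 18 oviduct and surface epithelium markers. Of the 16 endothelial markers 3 were higher and 13 lower in EP2KO (median −0.09), and 2 were at least 1.5-fold lower (against 0.436% of all genes). Cdh5, the cadherin of endothelial junctions, read 7.79 in EP2KO and 8.47 in WT (−0.68), and also differed by −0.81 at 14 h. Cd34, a marker of endothelium and blood progenitors, read 6.30 in EP2KO and 6.95 in WT (−0.65), below its differences at the other times. Pecam1, another endothelial marker, read 8.65 in EP2KO and 8.71 in WT.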

How the data were processed

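Cumulus cell RNA was amplified in 2 rounds and hybridised to Affymetrix arrays, 1 array for each of 2 genotypes at 4 times. RMA is the method named in the submitters' processing notes (version not given in the sources used here). Every one of the authors' deposited values is a log2 signal with 2 decimals and entered the steps with no added constant, no further scaling and no filter. No depth applies; the number of arrays limits the precision. Detection calls, which would mark signals near background, were not analysed here. Of 12422 probe sets 10833 carry 1 gene symbol (8251 genes), 396 several and 1193 none, by the platform annotation; 10817 matched a gene ID of the RefSeq table (GRCm38.p6), which also gave the promoter windows. Equal values made up at most 2.54% of any pair of arrays.

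EP2KO minus WT was taken per probe set, and called at 2-fold. The departure at 9 h was tested in R 4.3.3 with limma 3.58.1 (time, genotype and genotype at 9 h; 2 residual degrees of freedom, prior 11.53; two-sided, Benjamini-Hochberg over 12422, threshold 0.05; median SE 0.243), after a check on simulated data; it treats the other times as repeats. Named genes are the 12 higher and 12 lower with the largest difference, and the 8 and 8 farthest outside the other times, limited to probe sets that carry a single symbol and exceed the median of a 9 h array; Ptger2 and members of the 27 lists (698 symbols, 558 measured) may also be named. The members and lists were chosen with earlier results of these data known. Alternatives were median centring, quantile normalization, filters, thresholds, leaving out each other time, an intensity trend, other choices of response sets and averaged probe sets.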

Additional observations from a re-analysis of the deposited data

How the results depend on the processing

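Directions of the 31 named genes held under median centring and quantile normalization, with shifts of at most 0.141. Probe sets higher by 2-fold numbered 2 under quantile normalization against 5 as deposited, and 96 at 1.5-fold; those lower numbered 62 at 1.5-fold and 7 with 1 probe set per gene, against 11. The departure test called 0 probe sets under centring, quantile normalization and an intensity trend, 1 without the lowest 40%, and 0 to 4 with each other time left out. Late-declining probe sets were higher in EP2KO in 90.6% when chosen between 0 and 14 h, 96.6% with a log2 change of at least 1.5, and 92.9% with a 0 h difference within 0.1 (an added choice), against 95.0%. Late-gaining ones were lower in 72.2% when chosen between 0 and 14 h, against 78.7%. Of the list medians, that of interferon genes moved to −0.069 and that of ribosomal proteins to 0.063 under quantile normalization; cholesterol synthesis turned to −0.026 and that of granulosa genes came to 0.015 there, averaging probe sets gave 0.147 for the cell cycle and −0.06 for EGF genes, and 79 of 81 recomputed medians moved by less than the spread over the other times. The cause of these moves was not tested, apart from fewer features or arrays entering a fit. No paired analysis was possible because the labels give no replicate numbers; the departure fit compares the genotypes within each time through its time term.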
